A study of Mus musculus with 6 samples.

Results

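The 5 steroid hormone receptor genes examined here were Pgr, Esr1, Esr2, Nr3c1 and Nr3c2, which encode the receptors for progesterone, estrogen (α and β), glucocorticoids and mineralocorticoids. ATAC-seq, in which the Tn5 transposase inserts sequencing adapters mainly into open chromatin, was performed on primary smooth muscle cells of the mouse oviduct. There were 6 libraries of 50000 cells each, 3 WT and 3 Pbrm1 cKO, from females 8 to 12 weeks old on day 2 of pregnancy. Pbrm1 encodes PBRM1 (polybromo-1), a subunit of the SWI/SNF chromatin remodeler, and the series asked how its loss alters chromatin accessibility. Per the labels, the dissociated cells were plated for some hours before collection, at first with charcoal-stripped serum, which is low in steroids, and then with serum not described as stripped. In the study's methods, controls were Pbrm1 fl/fl and Pbrm1 cKO mice were Pbrm1 fl/fl with PR IRES-cre/+, a Cre knock-in at the Pgr gene that acts in PR-expressing cells. Only the Pbrm1 cKO group therefore carried a modified Pgr allele, and at the Pgr locus this allele and the loss of Pbrm1 cannot be told apart. Peak lists do not show the Pbrm1 deletion itself. Whether libraries came from separate animals was not stated in the labels, so p-values measure the spread between these libraries.

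A region belonged to a receptor gene if it overlapped the gene body or the 50 kb on either side. Of 66679 regions formed by merging the WT and Pbrm1 cKO lists of reproducible peaks (conservative IDR, the irreproducible discovery rate), 65 met this rule, with 33 at Esr1, 12 at Nr3c1, 7 at Esr2, 7 at Nr3c2 and 6 at Pgr. Within 1 kb of an annotated transcription start of the receptor gene itself lay 13 of them, called promoter regions below, and the other 52 are called distal. For all 66679 regions, promoter instead means within 1 kb of a start of any gene, and distal means the rest. Regions are named by their distance from the gene's start to the region's center, positive in the direction of transcription. In every library the regions were ranked by the highest −log10 p among overlapping entries (rank 1 is the strongest of 66679), and the rank score is log2(66679/rank), so that a difference of 1 means that the rank number halved or doubled.

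Steroid hormone receptors are transcription factors that are activated by their ligands. The receptors for progesterone, glucocorticoids and mineralocorticoids recognize a common palindromic DNA element, whereas both estrogen receptors recognize another, and without ligand the receptors are held by Hsp90 chaperone complexes. In the oviduct, ovarian estrogen and progesterone influence muscle contraction, ciliary activity and the passage of embryos toward the uterus.

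The sequences below are the central 300 bases, on the plus strand of GRCm38, of 8 regions on which the following results turn. They comprise the Pgr promoter region, the strongest Pgr region, the region behind Pgr with the lowest difference between genotypes, an intronic Esr1 region that ranked lower in all Pbrm1 cKO libraries, the strongest Esr1 region, the Esr2 region with the smallest p-value, the strongest promoter of the group and an Nr3c2 region with an AP-1 match at its center. Capitals mark matches to AP-1 (TGANTCA) and to the motif of the GATA factors, whose letters are AGATAA, and matches of the latter on the minus strand read in reverse complement.
Pgr +1.2 kb, promoter region, chr9:8900875-8901174: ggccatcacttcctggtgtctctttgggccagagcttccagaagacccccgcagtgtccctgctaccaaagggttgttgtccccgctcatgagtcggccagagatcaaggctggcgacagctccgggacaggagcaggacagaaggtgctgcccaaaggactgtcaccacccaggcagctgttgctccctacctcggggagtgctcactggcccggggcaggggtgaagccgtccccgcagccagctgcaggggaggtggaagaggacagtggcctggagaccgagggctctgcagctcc
Pgr +37.9 kb, intronic, chr9:8937566-8937865: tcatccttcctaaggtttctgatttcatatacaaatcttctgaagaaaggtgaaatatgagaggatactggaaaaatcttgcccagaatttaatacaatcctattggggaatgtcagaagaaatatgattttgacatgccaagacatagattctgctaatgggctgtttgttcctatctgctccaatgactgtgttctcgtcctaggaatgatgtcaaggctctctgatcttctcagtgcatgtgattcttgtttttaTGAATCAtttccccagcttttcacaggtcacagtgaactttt
Pgr +70.6 kb, behind the gene end, chr9:8970268-8970567: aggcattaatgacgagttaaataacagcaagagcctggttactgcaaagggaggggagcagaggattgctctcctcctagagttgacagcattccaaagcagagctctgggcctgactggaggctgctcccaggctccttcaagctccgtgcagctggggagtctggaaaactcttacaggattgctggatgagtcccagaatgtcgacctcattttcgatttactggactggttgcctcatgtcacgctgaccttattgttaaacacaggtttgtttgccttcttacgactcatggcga
Esr1 +108.3 kb, intronic, chr10:4719740-4720039: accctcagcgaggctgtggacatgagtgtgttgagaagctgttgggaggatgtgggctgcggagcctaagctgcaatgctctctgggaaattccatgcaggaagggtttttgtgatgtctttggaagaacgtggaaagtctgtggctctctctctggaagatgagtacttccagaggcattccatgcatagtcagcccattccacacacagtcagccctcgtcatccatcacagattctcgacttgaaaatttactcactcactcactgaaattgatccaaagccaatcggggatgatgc
Esr1 +372.5 kb, intronic, chr10:4983939-4984238: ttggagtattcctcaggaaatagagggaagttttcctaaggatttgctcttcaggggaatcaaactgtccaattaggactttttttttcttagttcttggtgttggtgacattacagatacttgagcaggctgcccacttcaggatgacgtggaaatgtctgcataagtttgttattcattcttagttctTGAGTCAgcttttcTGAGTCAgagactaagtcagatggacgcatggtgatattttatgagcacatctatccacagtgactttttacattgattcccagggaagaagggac
Esr2 +44.5 kb, intronic, chr12:76132567-76132866: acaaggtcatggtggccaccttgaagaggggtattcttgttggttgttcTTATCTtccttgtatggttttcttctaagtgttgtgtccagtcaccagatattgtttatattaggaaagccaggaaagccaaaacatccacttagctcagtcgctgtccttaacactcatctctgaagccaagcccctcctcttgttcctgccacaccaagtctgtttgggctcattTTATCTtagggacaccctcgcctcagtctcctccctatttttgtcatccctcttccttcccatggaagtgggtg
Nr3c2 +2.8 kb, promoter region, chr8:76902050-76902349: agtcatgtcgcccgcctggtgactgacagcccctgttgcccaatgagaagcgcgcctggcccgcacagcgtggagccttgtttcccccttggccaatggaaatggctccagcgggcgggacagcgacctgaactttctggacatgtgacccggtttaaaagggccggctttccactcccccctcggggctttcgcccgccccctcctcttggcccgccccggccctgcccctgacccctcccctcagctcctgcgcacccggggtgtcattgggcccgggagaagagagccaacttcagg
Nr3c2 +331.9 kb, intronic, chr8:77231233-77231532: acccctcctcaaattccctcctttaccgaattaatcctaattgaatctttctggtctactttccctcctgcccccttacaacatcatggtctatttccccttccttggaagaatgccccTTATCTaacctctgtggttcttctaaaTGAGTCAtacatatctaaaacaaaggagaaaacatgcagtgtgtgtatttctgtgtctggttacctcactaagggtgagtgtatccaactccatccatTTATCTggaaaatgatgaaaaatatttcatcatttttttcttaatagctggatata

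Full palindromes of the receptors' own elements were not found in these windows. In the 65 windows, neither the estrogen response element (GGTCANNNTGACC) nor the element shared by the progesterone, glucocorticoid and mineralocorticoid receptors (GNACANNNTGTNC) had a match on either strand. Such full palindromes were also rare among all 66679 regions, at 0.165% and 0.573%, so their absence from 65 windows says little. Half-sites and imperfect matches were not searched. AP-1, the motif bound by Fos and Jun proteins, was matched in 27 of 65 windows, and in 25 of the 52 distal windows (48.1%) against 43.2% of all distal windows. Esr1 held 15 of the AP-1 windows, Nr3c1 and Nr3c2 4 each, and Esr2 and Pgr 2 each. The strongest Esr1 region, 372.5 kb from the start, had 2 AP-1 matches, as printed above. GATA was matched in 11 of 65 windows (16.9%) against 12.9% of all windows. Among distal windows alone it was matched in 9 of 52 (17.3%) against 15.9% of all distal windows. Esr2 +44.5 kb, Esr2 −19.6 kb and Nr3c2 +331.9 kb had 2 GATA matches each. The CArG box, the element of serum response factor in smooth muscle genes, and the CTCF core (CCANNAGNNGGC) were each matched in 1 member window, Esr1 +207.9 kb and Esr2 −0.8 kb. In all regions they were found in 1.62% and 8.18%. These matches are descriptions of letters and not of binding.

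Accessibility at the receptor promoters spanned nearly the whole range of ranks. The mineralocorticoid receptor gene Nr3c2 had the strongest promoter, and those of Esr2 and Pgr were weak. At Nr3c2 +2.8 kb, a region that spans the RefSeq start of the gene, the rank was 2934, 2459 and 6317 in the WT libraries and 1195, 4121 and 2289 in the Pbrm1 cKO libraries. This placed it above 77.3% of the 13752 protein-coding genes that had a promoter region. The peak summit held 114, 104 and 57 tags (Tn5 read ends counted by the peak caller) in WT and 141, 103 and 124 in Pbrm1 cKO libraries. The best Nr3c1 promoter region, at +27.8 kb, ranked 12729, 11163 and 8460 in WT and 8240, 9553 and 7648 in Pbrm1 cKO libraries, above 43.6% of genes. Esr1 +1.0 kb ranked 30949.5, 22766 and 18486.5 in WT and 19979, 24086.5 and 20605.5 in Pbrm1 cKO libraries, above 20.7% of genes. Esr2 −0.8 kb ranked 30882.5, 31271 and 41131 in WT and 36892, 45224.5 and 48557 in Pbrm1 cKO libraries, above 9.11% of genes. Pgr +1.2 kb, above 6.04% of genes, is given with the Pgr locus.

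In this order, the ranges over the 6 libraries did not overlap between Nr3c2 and Nr3c1 or between Nr3c1 and Esr1. Esr1 and Esr2 overlapped only at their edges, since the weakest Esr1 library (30949.5) lay just beyond the strongest Esr2 library (30882.5). Esr2 and Pgr overlapped widely, and their order is not separated by these libraries. Over the 13 receptor promoter regions the median of the mean rank was 68.0% of the way down the list, against 28.4% for all 21555 promoter regions. The 52 distal regions lay at 55.3%, against 60.5% for all 45124 distal regions. The 52 include Pgr +73.1 kb and Nr3c1 +129.8 kb, which lie at starts of other genes and count as promoter regions among all regions. These are descriptions of rank with no test.

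**Figure D1:**
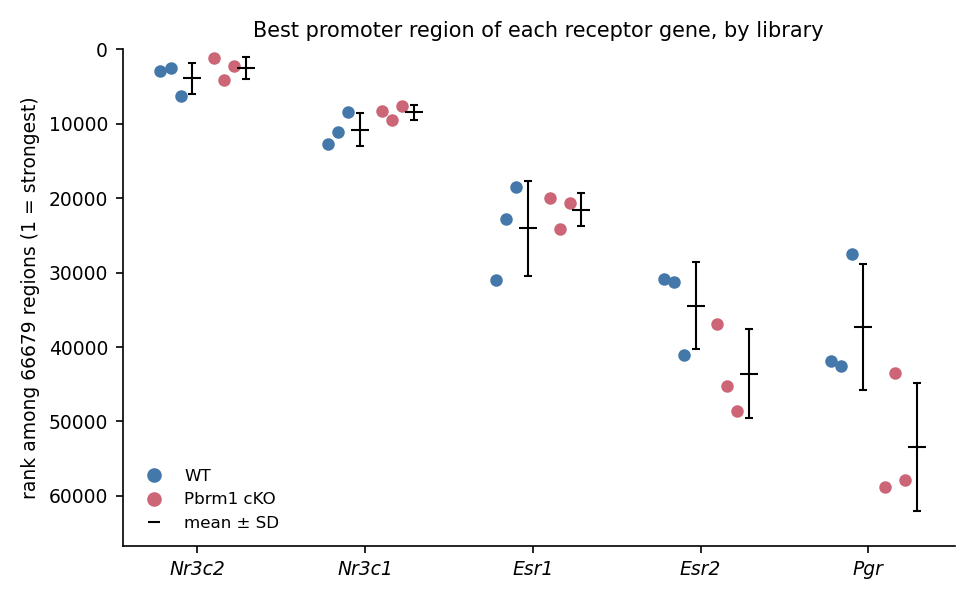
Rank of the best promoter region of each receptor gene among 66679 merged regions (y axis, 1 is strongest, axis reversed), with 1 point per library and the mean ± SD beside each group (n = 3). Nr3c2 lies between 1195 and 6317 in all libraries, and the Pgr points reach from 27513 to 58865.

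The likeness of promoter patterns was measured as the Euclidean distance between 6 rank scores, with 13751 other protein-coding genes compared. Ppp1r14c was near to Pgr (distance 0.23). Those nearest to Esr1 were Slc6a19 (0.30) and Aspg (0.33), and those nearest to Esr2 were Slc9a4 (0.30) and Tmem52b (0.33). Gm19426 (0.34) and Rgs10 (0.35) were nearest to Nr3c1, and Flrt3 (0.72) and Ppp1r7 (0.81) were nearest to Nr3c2.

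None of the 65 regions passed the comparison between genotypes. With limma on the rank scores, adjusted over all 66679 regions, 0 receptor regions had an adjusted p under 0.05 (background 0.0675% of all regions), and the smallest adjusted p was 0.0837. At an unadjusted p under 0.05 there were 11 of 65 (16.9%), 5 higher and 6 lower in Pbrm1 cKO, beside 15.9% of all regions. On normal scores of the ranks, limma called 1 receptor region, Esr2 +44.5 kb, where 2.33% of all regions were called. In 4 regions every Pbrm1 cKO library ranked above every WT library (6.15%, against 10.6% of all regions), and in 8 the reverse was found (12.3%, against 10.9%). The median difference, Pbrm1 cKO minus WT, was −0.03 over the receptor regions and 0.00055 over all regions, and 35 of the 65 differences were below 0. The shares at the receptor genes thus lay near those of all regions.

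**Figure D2:**
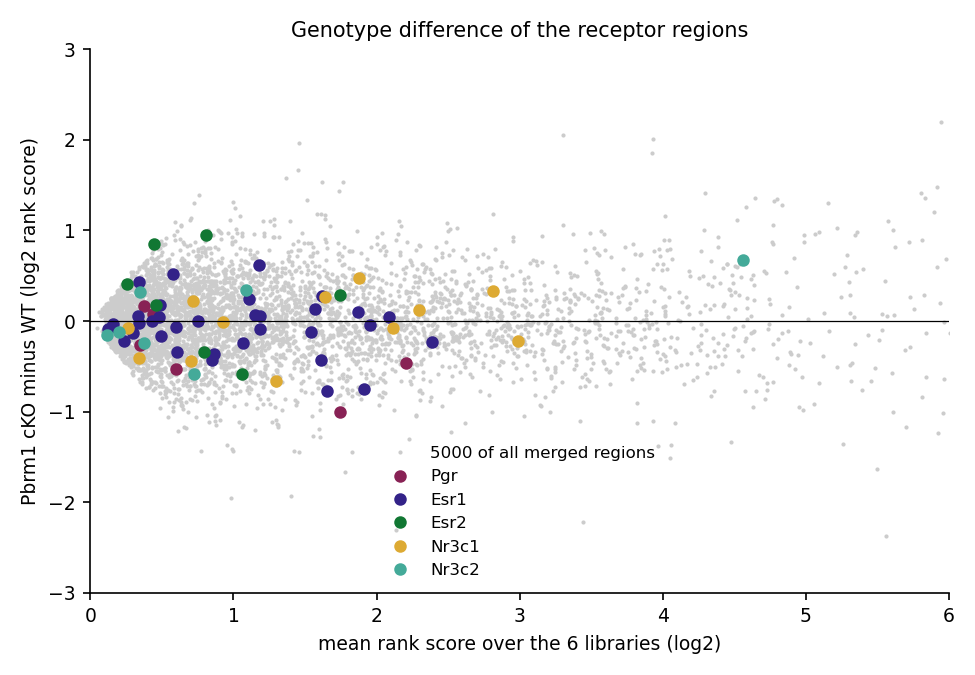
Difference of the rank score, Pbrm1 cKO minus WT (y axis, log2), against its mean over 6 libraries (x axis, log2, higher is stronger). Colored points are the 65 receptor regions, and grey points are 5000 of the 66679 merged regions. The receptor regions lie within the grey cloud, from −1.0 at Pgr +70.6 kb to 0.94 at Esr2 −13.9 kb.

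Of the 65 regions, 39 were in both IDR lists, 15 in the WT list alone (23.1%, against 13.4% of all regions) and 11 in the Pbrm1 cKO list alone (16.9%, against 17.4%). There was 1 list per genotype, so presence in a list could not be compared between libraries, and these counts rest on the same libraries as the ranks. A region in 1 list alone entered the merged set only through that genotype. This selection favors a stronger rank in that genotype, and the p-values do not account for it. Among the 13 promoter regions 5 were shared, 6 were in the WT list alone and 2 in the Pbrm1 cKO list alone. The matching shares of all promoter regions are not given here, so these counts are not read as a result about the receptors. Pgr, with 6 regions, and Nr3c1, with 12, had none in the Pbrm1 cKO list alone, where 17.4% of all regions were. Presence in 1 list alone was not absence from the other genotype, since 61 of the 65 regions had an entry in all 6 relaxed lists (93.8%, against 93.5% of all regions). Of the 6 missing entries, 4 were in WT library 3.

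**Figure D3:**
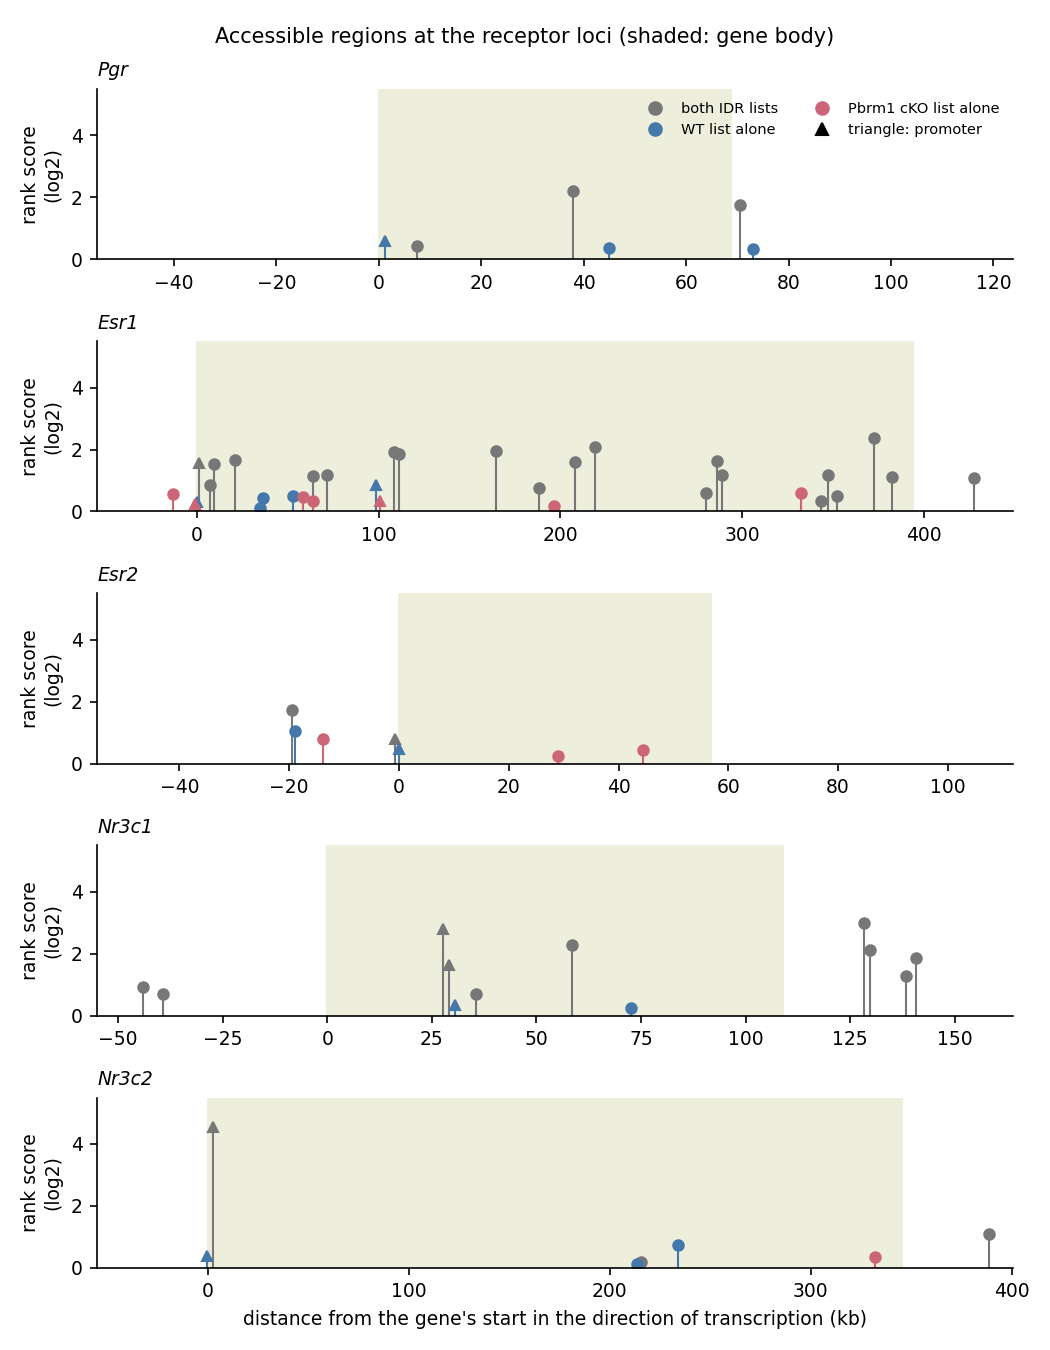
Mean rank score over 6 libraries (y axis, log2, higher is stronger) of each region by its distance from the gene's start (x axis, kb), 1 panel per receptor gene with the gene body shaded. Grey regions were in both IDR lists, blue in the WT list alone and red in the Pbrm1 cKO list alone, and triangles mark promoter regions. Esr1 holds 33 regions spread over its whole length, whereas the strongest point, at 4.56, is the Nr3c2 promoter.

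Pgr, the progesterone receptor gene (ENSMUSG00000031870.16, chr9:8899833-8968611, plus strand), had a weak promoter, 1 strong intronic region and 1 strong region just behind the gene. Its 6 regions, 3.55 per 100 kb, placed the locus above 41.1% of protein-coding genes in density. The promoter region, chr9:8899976-8902074, begins 143 bases after the RefSeq start and lies over exon sequence. It ranked 41849, 42552 and 27513 in WT and 58865, 43515 and 57884 in Pbrm1 cKO libraries, with 35, 30 and 24 tags against 22, 27 and 18. All Pbrm1 cKO libraries thus ranked below all WT libraries, although Pbrm1 cKO library 2 (43515) lay close to WT library 2 (42552). The difference of the mean rank scores was −0.53 ± 0.24 (SE), and the limma adjusted p was 0.291. The difference was −0.23 when regions were ranked by fold enrichment in place of −log10 p, and −0.33 without WT library 3. This region was in the WT list alone.

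The strongest Pgr region, chr9:8937317-8938115 in an intron, ranked 13615.5, 11077.5 and 12369 in WT and 11484, 20474 and 20783 in Pbrm1 cKO libraries. The groups overlapped, since Pbrm1 cKO library 1 stood among the WT libraries (difference −0.46 ± 0.35, adjusted p = 0.550 by limma). Behind the gene, 1.5 kb past its annotated end, chr9:8970091-8970745 ranked 12836, 9693.5 and 22406.5 in WT and 30207.5, 30696.5 and 24225.5 in Pbrm1 cKO libraries. Every Pbrm1 cKO library ranked below every WT library, with 31, 25 and 29 tags against 51, 51 and 18 in WT. WT library 3 had the fewest tags although it ranked above the Pbrm1 cKO libraries. The difference of −1.0 ± 0.36 was the lowest of the 65 regions and did not pass the test (adjusted p = 0.183 by limma). Pgr +7.5 kb (0.07) and Pgr +44.9 kb (0.17), both intronic, had small differences with overlapping groups, as had Pgr +73.1 kb (−0.27), which lies on the noncoding gene Gm16485. The median over the 6 regions was −0.36, with 4 of 6 below 0.

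Esr1, the gene of estrogen receptor α (ENSMUSG00000019768.16, chr10:4611593-5005614, plus strand), held 33 regions, of which 26 were distal and inside the gene. Its density of 6.68 regions per 100 kb exceeded that of 69.7% of protein-coding genes. The median difference was −0.03, with 18 of 33 below 0, and 21 regions were shared, 5 in the WT list alone and 7 in the Pbrm1 cKO list alone. The 5 promoter regions served several annotated starts. Esr1 +1.0 kb, chr10:4612174-4612985, was the only one in both lists and the strongest (difference 0.13 ± 0.33). Around the first start, Esr1 −1.1 kb was in the Pbrm1 cKO list alone (−0.22), and Esr1 +0.0 kb was in the WT list alone (−0.13). Further in, Esr1 +98.4 kb spans a second RefSeq start and was in the WT list alone (−0.44), while Esr1 +100.9 kb was in the Pbrm1 cKO list alone (−0.02). In all 5 the groups overlapped, and the smallest limma adjusted p was 0.487.

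Of the 33 Esr1 regions, 4 distal regions inside the gene separated the genotypes by rank, 3 lower and 1 higher in Pbrm1 cKO. Of all regions, 10.9% were apart and lower in Pbrm1 cKO and 10.6% apart and higher, so the count does not set Esr1 apart. Esr1 +20.6 kb, chr10:4632007-4632388, ranked 21766.5, 15913 and 12274 in WT and 24430.5, 30910.5 and 28214.5 in Pbrm1 cKO libraries (−0.78 ± 0.33, limma adjusted p = 0.264). Esr1 +108.3 kb, chr10:4719682-4720098, ranked 13447, 13472.5 and 14077.5 in WT and 27028.5, 16277.5 and 27539.5 in Pbrm1 cKO libraries. Its difference was −0.75 ± 0.33 (limma adjusted p = 0.284), with 59, 52 and 30 tags in WT and 40, 48 and 36 in Pbrm1 cKO. The neighboring Esr1 +111.2 kb, in contrast, ranked between 16751 and 20927.5 in all 6 libraries, with a difference of 0.10. The difference between these neighbors was not tested. Esr1 +63.8 kb was the region with higher ranks in Pbrm1 cKO, from 56746.5, 63670.5 and 63416 in WT to 37357.5, 48915 and 51218.5 (0.43 ± 0.16, limma adjusted p = 0.203). It was weak, with 15, 9 and 4 tags in WT and 23, 15 and 15 in Pbrm1 cKO, and it was in the Pbrm1 cKO list alone. The fourth, Esr1 +280.2 kb, differed by −0.34 (limma adjusted p = 0.471).

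The strongest Esr1 regions did not separate the genotypes. Esr1 +372.5 kb, chr10:4983717-4984461, ranked 7678, 13381 and 15930 in WT and 11114, 15438 and 15275 in Pbrm1 cKO libraries (−0.23 ± 0.36). Esr1 +219.1 kb (0.04 ± 0.34) and Esr1 +164.6 kb (−0.05 ± 0.34) followed, with overlapping groups. The median SE of the difference over the 65 regions was 0.29.

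Esr2, the gene of estrogen receptor β (ENSMUSG00000021055.14, chr12:76120419-76177259, minus strand), had 7 regions, and the 3 of them in the Pbrm1 cKO list alone had the largest differences above 0 at the locus. The intronic Esr2 +44.5 kb, chr12:76132479-76132955, ranked 66325, 65600.5 and 65147 in WT and 32349, 33028 and 45273 in Pbrm1 cKO libraries. In WT it was listed in library 2 alone, with 6 tags, whereas the Pbrm1 cKO libraries had 25, 21 and 17 tags. The difference was 0.85 ± 0.19 (limma adjusted p = 0.0837), and on normal scores the adjusted p was 0.0046. A second intronic region, Esr2 +28.9 kb, ranked 65405.5, 64935.5 and 62319 in WT and 43178, 50567 and 51795 in Pbrm1 cKO libraries, with 7, 7 and 5 tags against 19, 14 and 14. Its groups were likewise apart (0.41 ± 0.13, limma adjusted p = 0.149), and ranked by fold enrichment the difference was 0.64. Upstream, Esr2 −13.9 kb ranked 60518.5, 37417.5 and 65147 in WT and 27468.5, 17429 and 43210.5 in Pbrm1 cKO libraries. There the groups overlapped and WT library 3 had no entry (0.94 ± 0.33, limma adjusted p = 0.180), and the difference was 0.62 without Pbrm1 cKO library 2. The Pbrm1 cKO list was drawn from the same libraries and is no independent evidence of these differences. These 3 regions also entered the merged set through the Pbrm1 cKO list alone. That selection favors differences above 0, and the p-values do not account for it.

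The other Esr2 regions showed no such shift. At the promoter, Esr2 −0.1 kb, which spans the RefSeq start, was in the WT list alone (0.18 ± 0.20), and Esr2 −0.8 kb was shared (−0.34 ± 0.27). The strongest Esr2 region, Esr2 −19.6 kb at chr12:76196694-76196915, ranked 26866, 26935 and 14562.5 in WT and 16247, 24494.5 and 14719.5 in Pbrm1 cKO libraries (0.28 ± 0.35). Its neighbor Esr2 −19.0 kb, in the WT list alone, had a difference of −0.59 ± 0.35, and it ranked 61722 in Pbrm1 cKO library 2 while library 3 (24101.5) stood among the WT libraries. Without library 2 it was −0.26. In neither region did the groups separate.

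**Figure D4:**
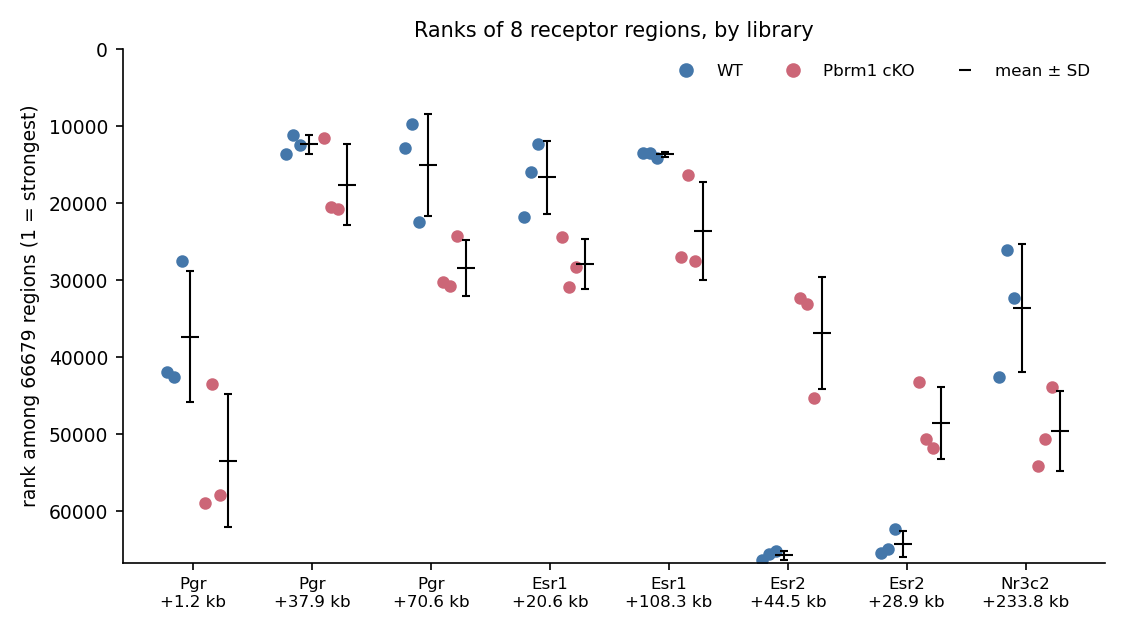
Rank among 66679 regions (y axis, 1 is strongest, axis reversed) of 8 regions at Pgr, Esr1, Esr2 and Nr3c2, with 1 point per library and the mean ± SD beside each group (n = 3). The groups are apart in all of them but Pgr +37.9 kb, with the Pbrm1 cKO libraries stronger at the Esr2 regions and weaker at the others. The Esr1, Esr2 and Nr3c2 regions were picked for groups apart in these directions, and Pgr +70.6 kb for the lowest difference. This pattern therefore follows largely from the choice. Of all regions, 10.6% were apart and higher in Pbrm1 cKO and 10.9% apart and lower. None passed the limma test.

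Nr3c1, the glucocorticoid receptor gene (ENSMUSG00000024431.15, chr18:39410545-39519421, minus strand), had 12 regions, 10 shared and 2 in the WT list alone, at a density above 62.0% of protein-coding genes. Its 3 promoter regions lay side by side, 27.8 to 30.4 kb inside the longest annotated transcript. The strongest, chr18:39491504-39491777, had a difference of 0.33 ± 0.35, and the adjacent Nr3c1 +29.1 kb had 0.26 ± 0.32. Ranked by fold enrichment in place of −log10 p, both differences lay below 0 (−0.11 and −0.04). Nr3c1 +30.4 kb, in the WT list alone, ranked 53267, 48356 and 36954 in WT and 63524, 64226 and 55083 in Pbrm1 cKO libraries. The groups were apart (−0.41 ± 0.16, limma adjusted p = 0.231), with 34, 34 and 25 tags against 31, 26 and 34, so that the number of tags overlapped while the ranks did not. Its difference was smaller, at −0.26, when WT library 3 was left out, and −0.13 with ranks by fold enrichment.

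The strongest distal region of Nr3c1, chr18:39390679-39391540, lay 19.0 kb behind the gene and had 3 AP-1 matches in its window. It ranked 6443, 5310.5 and 13646.5 in WT and 9946, 8364 and 8933 in Pbrm1 cKO libraries (−0.22 ± 0.40). Nr3c1 +140.8 kb, in an intron of the noncoding gene Gm15337, ranked 20359, 16845 and 28602.5 in WT and 15298.5, 14639 and 16289 in Pbrm1 cKO libraries. All Pbrm1 cKO libraries ranked above all WT libraries, but the difference of 0.48 ± 0.33 did not pass (limma adjusted p = 0.510) and was 0.27 without WT library 3. The intronic Nr3c1 +58.5 kb stayed between 10621.5 and 16655.5 in the 6 libraries (0.12 ± 0.33), and Nr3c1 +129.8 kb differed by −0.08 ± 0.40. The median over the 12 regions was −0.04.

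Nr3c2, the mineralocorticoid receptor gene (ENSMUSG00000031618.13, chr8:76899442-77245012, plus strand), combined the strongest promoter with few and weak distal regions. Its 7 regions gave 1.57 per 100 kb, above 23.3% of protein-coding genes. The promoter region, chr8:76901937-76902462, had the largest number of tags of any receptor region (141, in Pbrm1 cKO library 1), and its difference of 0.67 ± 0.54 was within the spread of the libraries (limma adjusted p = 0.580). With Pbrm1 cKO library 1 left out it was 0.22. A second promoter region, Nr3c2 −0.2 kb, lies on the noncoding gene Gm10649 and was in the WT list alone (−0.24 ± 0.17).

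Among the distal Nr3c2 regions, chr8:77132886-77133550 (Nr3c2 +233.8 kb), in the WT list alone, ranked 42542, 26028 and 32304.5 in WT and 54129, 50567 and 43908 in Pbrm1 cKO libraries. The groups were apart (−0.58 ± 0.26, limma adjusted p = 0.287), with 18, 24 and 13 tags against 15, 14 and 17. Nr3c2 +215.5 kb was also apart, at ranks of 55081 or weaker in all libraries (−0.12 ± 0.11). Nr3c2 +331.9 kb, in the Pbrm1 cKO list alone, differed by 0.32 ± 0.17 with overlapping groups, and its AP-1 match lay 0.5 bases from the center of the region. Nr3c2 +388.7 kb, in an intron of Arhgap10, had a difference of 0.34 ± 0.37.

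The relaxed lists were then used to count all distinct intervals over each locus, including those outside the reproducible peaks. Pgr had 17, 18 and 23 intervals in WT and 18, 14 and 24 in Pbrm1 cKO libraries. Esr1 had 99, 112 and 95 against 95, 94 and 92, and Nr3c1 had 34, 39 and 33 against 34, 36 and 34. Nr3c2 had 30, 31 and 30 against 26, 30 and 32. In these 4 genes the groups overlapped or touched, with exact permutation p-values from 0.2 to 1. At Esr2 the counts were 9, 15 and 21 in WT and 24, 26 and 22 in Pbrm1 cKO libraries, a difference of 9.0 with no overlap (15.0 ± 6.0 against 24.0 ± 2.0, SD, n = 3 each). The exact two-sided permutation p was 0.1, the smallest that 3 against 3 libraries can give, so no locus could reach 0.05. With the locus narrowed to 10 kb on either side, the Esr2 difference was 3.33 (exact permutation p = 0.3), and that of Nr3c2 was −6.33 (exact permutation p = 0.1).

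**Figure D5:**
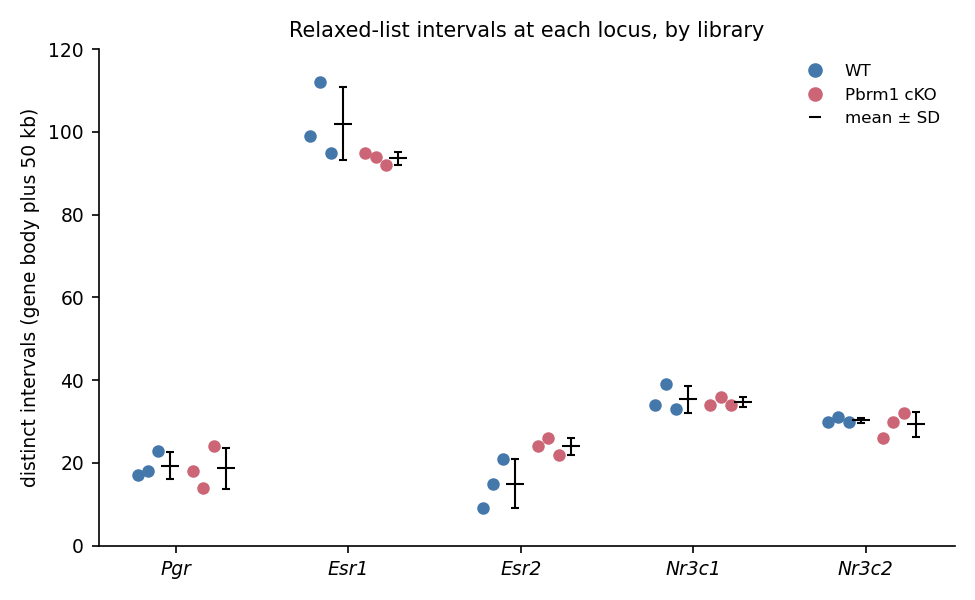
Number of distinct relaxed-list intervals over each receptor gene and its 50 kb flanks (y axis) by library, with the mean ± SD beside each group (n = 3). At Esr2 the Pbrm1 cKO libraries lie at 22 to 26 and the WT libraries at 9 to 21, while the other genes overlap or touch.

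Genes around the receptors were described by the promoter regions of fixed lists. No region of these lists passed the limma test in either direction. Of 8 chaperones and immunophilins, which hold the receptors before ligand binds, 12 regions had a median difference of −0.06, with 7 lower in Pbrm1 cKO. Hspa8 (−0.98 ± 0.97), the heat shock cognate chaperone, had the largest difference of their best promoter regions and lay below 0. Fkbp4 (0.78 ± 0.41), the immunophilin FKBP52, and Fkbp5 (0.75 ± 0.48), a glucocorticoid-induced immunophilin, had the largest differences above 0 among their best promoter regions and were picked for these values. Of 10 coregulators, such as the coactivator Ncoa2 and the corepressor Ncor1, 18 regions had a median of −0.09. Among 13 genes of ligand metabolism and other receptors, 9 had promoter regions, 15 in all with a median of −0.10. Pgrmc2, which encodes a membrane-associated protein, had a promoter region that stood above 92.7% of genes. Hsd11b1, whose enzyme regenerates active glucocorticoid, had a difference of −0.65 ± 0.36 (limma adjusted p = 0.394). Of 18 receptor target genes 14 had promoter regions, 24 in all with a median of −0.01, and Greb1, Ltf, Lif and Ihh had none. Sgk1, a kinase gene induced by glucocorticoids and mineralocorticoids, had the largest difference of these genes (−1.21 ± 0.71, limma adjusted p = 0.417), with a rank of 460 in WT library 3 and of 4839 to 6946 in the others. Per1 (0.00 ± 0.41) and Klf9 (0.30 ± 0.44) are glucocorticoid-responsive genes, and Hand2 (−0.60 ± 0.37) is induced by progesterone in uterine stroma.

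The labelled cell type was checked in the same way. Of 7 smooth muscle markers 5 had a promoter region, Acta2, Myh11, Cnn1, Tagln and Des, at a median position above 19.8% of genes, and Myocd and Actg2 had none. Of 6 epithelial markers, Foxj1 of ciliated cells alone had one, above 68.4% of genes, and of 3 immune markers Cd68 alone, above 21.5%. All 3 endothelial and all 3 fibroblast markers had promoter regions, at median positions above 11.6% and 11.9% of genes. By median position the smooth muscle markers thus did not stand above Foxj1 or Cd68. The fibroblast regions, from only 3 genes, were higher in Pbrm1 cKO in 7 of 7 (median 0.29). In 3 of them the groups were apart, where 10.6% of all regions were apart in this direction. In the best promoter region of each of the 3 genes the groups overlapped. The smooth muscle regions were lower in 5 of 7 (median −0.18), and no region of either list passed the limma test. Their part in the receptor values was not tested. In bulk samples a different share of cells and a different accessibility per cell cannot be told apart. The relaxed lists held between 201228 and 241237 distinct intervals, with the most, and the lowest median fold (3.61), in WT library 3. Over the receptor regions the median was 14 tags in that library and 23 to 28.5 in the others.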

How the data were processed

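Peak lists of 6 ATAC-seq libraries and 2 pooled peak lists of mouse oviductal smooth muscle cells were analysed. Per the study's methods and the submitters' processing notes, the authors trimmed reads with cutadapt, aligned them with Bowtie2 to GRCm38 and called peaks with MACS2 in the ENCODE ATAC-seq pipeline. Per library the authors deposited a permissive list (called the relaxed list, p of 0.01, at most 300000 entries), and for each genotype 1 conservative IDR list from pooled reads. Which replicates entered the IDR step is not given in the sources used here. Each deposited entry carries a fold enrichment (a ratio over local background), a −log10 p, in the relaxed lists a −log10 q, and a score rescaled by the peak caller. The authors compared genotypes by read counts with DESeq2. The lists hold no read counts, so total depth is unknown and ranks within a library were used, which hide a change shared by all regions.

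Entries with identical coordinates were reduced to 1 interval. The 2 IDR lists were merged at an overlap of 1 bp. Starts and genes came from GENCODE M21, and promoter starts named RefSeq came from RefSeq (GRCm38.p6, 4 of 5 genes matched). Tags were derived from fold and p of each entry, and 384 of 384 entries over the receptor regions gave a whole number within 0.002 on the −log10 p scale. limma 3.58.1 (lmFit, eBayes with trend, R 4.3.3) was fitted to log2(66679/rank) of all regions, a region without an entry ranking last, with Benjamini-Hochberg adjustment over all regions, and was tested on simulated data. Exact two-sided permutation tests over libraries used scipy 1.17.1. Motifs were searched on both strands of the central 300 bases. Named regions were all promoter regions, the 3 strongest distal regions of each gene, the 5 higher and 5 lower regions with the largest differences among those with groups apart, the best-ranked region of each gene in 1 list alone, and any past the test. Others named were chosen after their values were seen. The members and lists were chosen with earlier results of these data known. The numbers of same-numbered libraries did not pair (correlations of deviations −0.0029, −0.055 and 0.0091). Some genes that these rules name are not reported here.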

Additional observations from a re-analysis of the deposited data

How the results depend on the processing

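No receptor region passed limma under any alternative except normal scores, with 1 region, Esr2 +44.5 kb (adjusted p = 0.0046). On the log2 rank score its adjusted p was 0.0837, and 0.110 to 0.210 without single libraries. In WT this region was listed in library 2 alone, with 6 tags, so its WT ranks lay at or near the last. Normal scores stretch that end of the ranks, with a difference of 2.09 against 0.85. The settings limited to entries in all 6 libraries or to the stronger part of all regions left the region out. It entered the merged set through the Pbrm1 cKO list alone. Normal scores were not run without single libraries. The median difference over the receptor regions was 0.041 in the stronger part of all regions by mean rank score, against −0.03, and lay below 0 in all other alternatives. With only the better-ranked part of both IDR lists there were 2 regions in the WT list alone, 4 in the Pbrm1 cKO list alone and 21 in both. The intervals per locus at Pgr, Nr3c1 and Nr3c2 changed sign at a q of 0.05 or less (0.67, 1.67 and 0.33) and per 100000 intervals (0.32, 0.65 and 0.37), and those at Esr1 at a q of 0.05 or less (1.0), so their main differences (−0.67, −0.67, −1.0 and −8.33) have no stable direction. Without single libraries they ranged from −3.33 to 1.67 at Pgr, −1.83 to 1.17 at Nr3c1, −2.33 to 0.67 at Nr3c2, −11.8 to −3.33 at Esr1 and 6.0 to 12.0 at Esr2, where the lowest was without WT library 1. The replicate block, which gave 0 called receptor regions and a median difference of −0.03, changed no call (sign-flip p from 0.25 to 1 for the intervals, with differences of −0.67, −8.33, 9.0, −0.67 and −1.0 at Pgr, Esr1, Esr2, Nr3c1 and Nr3c2). The library numbers are not known to pair samples.

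Ranked by fold enrichment, Nr3c1 +27.8 kb (−0.11) and Nr3c1 +29.1 kb (−0.040) changed sign. Without single libraries, sign changes occurred at 10 named regions, all with overlapping groups, with ranges of −0.17 to 0.22 (Pgr +7.5 kb), −0.067 to 0.31 (Esr1 +1.0 kb), −0.14 to 0.069 (Esr1 +100.9 kb), −0.22 to 0.12 (Esr1 +164.6 kb), −0.22 to 0.17 (Esr1 +219.1 kb), −0.28 to 0.21 (Esr1 +332.5 kb), −0.44 to 0.083 (Esr1 +372.5 kb), −0.52 to 0.39 (Nr3c1 +129.8 kb), −0.63 to 0.050 (Nr3c1 +128.3 kb) and −0.029 to 0.21 (Nr3c1 +58.5 kb). None of the 10 named regions with groups apart changed sign. Without single libraries this was fixed in advance, since groups that do not overlap cannot reverse, so it is no support for them. The cause of the sign changes at the other regions was not tested. Listed summits over the receptor regions held as few as 4 tags, and their median was lowest in WT library 3, which limits what the weakest regions can show.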
